A study of Mus musculus with 9 samples.

Results

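The genes examined were Mcu, Smdt1, Micu2, Micu3, Mcur1, Letm1 and Slc8b1, which encode parts of the mitochondrial calcium uniporter or partners that act beside it. They were picked out by gene symbol, with earlier results of these data known, and are 7 of the 54532 genes with a value in the deposited table. The RNA came from brain cortex of adult male mice aged 8 to 12 weeks, with 3 mice of each inbred strain. C57BL6/J (B6) supplied the reference genome of the mouse, C3H/HeJ (C3H) is a second laboratory strain, and WSB/EiJ (WSB) was bred from wild-caught mice. The labels give no transgene or treatment for any group, and the study set the strains side by side because they differ in the volume of brain tissue lost after a stroke.

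The uniporter is the main route by which calcium enters the mitochondrial matrix. Mcu forms its pore in the inner membrane, Smdt1 encodes EMRE, the small membrane protein without which the pore of animals does not conduct, and Micu2 and Micu3 encode EF-hand proteins that sense calcium outside the matrix and set when the pore opens. Mcur1 is a scaffold for assembly of the complex, Letm1 is an inner membrane protein for cation exchange against protons, and Slc8b1 (NCLX) is the sodium and calcium exchanger through which calcium leaves the matrix. Micu3 is known as the gatekeeper of nerve cells, and calcium overload of mitochondria is a known step in the death of neurons after ischemia.

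Coding sequences are shown for the genes on which the results turn, in the direction of the gene and from GENCODE M21 on GRCm38. Micu3 (ENSMUSG00000039478) lies on chromosome 8 from 40307458 to 40386308 on the plus strand. The study lists a coding variant near the start of its protein at which C3H and WSB share an allele that B6 lacks. It also lists Micu3 among genes with lower transcript levels in C3H than in B6. The first 45 coding bases lie in exon 1 at chr8:40308051-40308095, and the capitals mark codon 7, at 40308069 to 40308071, where that variant falls in the reference.
Micu3: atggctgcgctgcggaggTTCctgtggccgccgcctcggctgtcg
Smdt1 (ENSMUSG00000022452) lies on chromosome 15 from 82338959 to 82349091 on the plus strand and has the shortest coding sequence of the 7 genes, 321 bases without a stop codon. The 135 coding bases of exon 2, of 3 exons in all, are shown because Smdt1 was the gene of the 7 that passed the test between strains. They lie at chr15:82347900-82348034. The capitals mark its last 7 codons, from codon 101, all with GA as their first bases, which encode the acidic tail of EMRE on which the gatekeepers dock.
Smdt1: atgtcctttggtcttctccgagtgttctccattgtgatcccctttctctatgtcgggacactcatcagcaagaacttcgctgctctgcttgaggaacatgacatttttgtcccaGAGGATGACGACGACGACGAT
Mcu (ENSMUSG00000009647) lies on chromosome 10 from 59446984 to 59616692 on the minus strand. Its pore stretch is set beside that of Mcub (ENSMUSG00000027994), the paralogue that enters the same ring and lowers its conductance, because Mcub passed the test between WSB and C3H. Both stretches are 60 bases of exon 6, at chr10:59454985-59455044 and chr3:129916978-129917037, and the capitals mark the 15 bases at which they differ.
Mcu: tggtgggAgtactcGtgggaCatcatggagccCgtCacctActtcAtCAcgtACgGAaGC
Mcub: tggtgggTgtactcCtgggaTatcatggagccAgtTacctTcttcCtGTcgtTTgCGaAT

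Levels are given in FPKM, fragments per kilobase of gene model after scaling of the libraries to a common depth. Each value could be turned back into whole reads, and 16317439 to 21562429 reads per mouse lay on genes. The 7 genes had between 103 reads, for Slc8b1, and 3115 reads, for Smdt1, in a single library. As a check of the tissue, the summed level of 8 neuronal markers was 1186 to 1283 FPKM in the B6 mice, 1120 to 1224 in the C3H mice and 1135 to 1217 in the WSB mice. The sum of 6 oligodendrocyte markers was lower in WSB (427 to 617) than in B6 (784 to 982) and C3H (734 to 989), and 5 blood markers summed to 632 to 1010 in C3H against 217 to 254 in B6 and 249 to 329 in WSB. Sums of 7 striatal markers (132 to 747) and of 5 choroid plexus markers (64.4 to 762) varied within the strains. The sum of 6 astrocyte markers was 466 to 531 in all mice, and that of 6 hippocampal markers was 96.1 to 106.4 in WSB against 73.8 to 86.4 in the other mice. The hippocampal difference lay in Wfs1, the 1 gene of that list called, and without it the WSB sums (42.5 to 49.6) overlapped those of the B6 mice (43.0 to 51.1) and the C3H mice (42.7 to 48.3). No marker gene of these lists was at 0 in all libraries, but the endothelial marker Ly6c1 was at 0 in all 3 WSB mice. Library C3H replicate 2 stood apart from the other C3H mice in how its values ran with the GC content of genes. Its trend lay within the range of the B6 and WSB mice, while the trends of C3H replicates 1 and 3 lay above those of all other mice. Fold changes of the 7 genes in C3H are also given without C3H replicate 2. They then rest on C3H replicates 1 and 3 alone and are not a cleaner estimate.

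Smdt1 had by far the highest level of the 7 genes in every mouse, and Slc8b1 or Mcur1 the lowest. The means over all 9 mice ran from Smdt1 (79.3 FPKM) over Micu3 (12.1), Letm1 (11.9), Micu2 (7.89), Mcu (4.72) and Mcur1 (3.02) to Slc8b1 (2.01). Micu3 and Letm1 are neighbours in this order whose levels did not differ beyond their spread, since Micu3 was above Letm1 in all 3 B6 mice, in C3H replicate 2 and in WSB replicates 1 and 3, and below it in the other mice. In C3H replicates 1 and 3 Micu3 also fell below Micu2, and in C3H replicate 3 Slc8b1 passed Mcur1. Comparison of levels between genes rests on the length used. With the length of 1 transcript in place of the deposited gene model, Mcu (11.4) came above Micu2 (10.4), and Smdt1 (166), Micu3 (33.6) and Letm1 (21.7) remained the 3 highest.

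**Figure D1:**
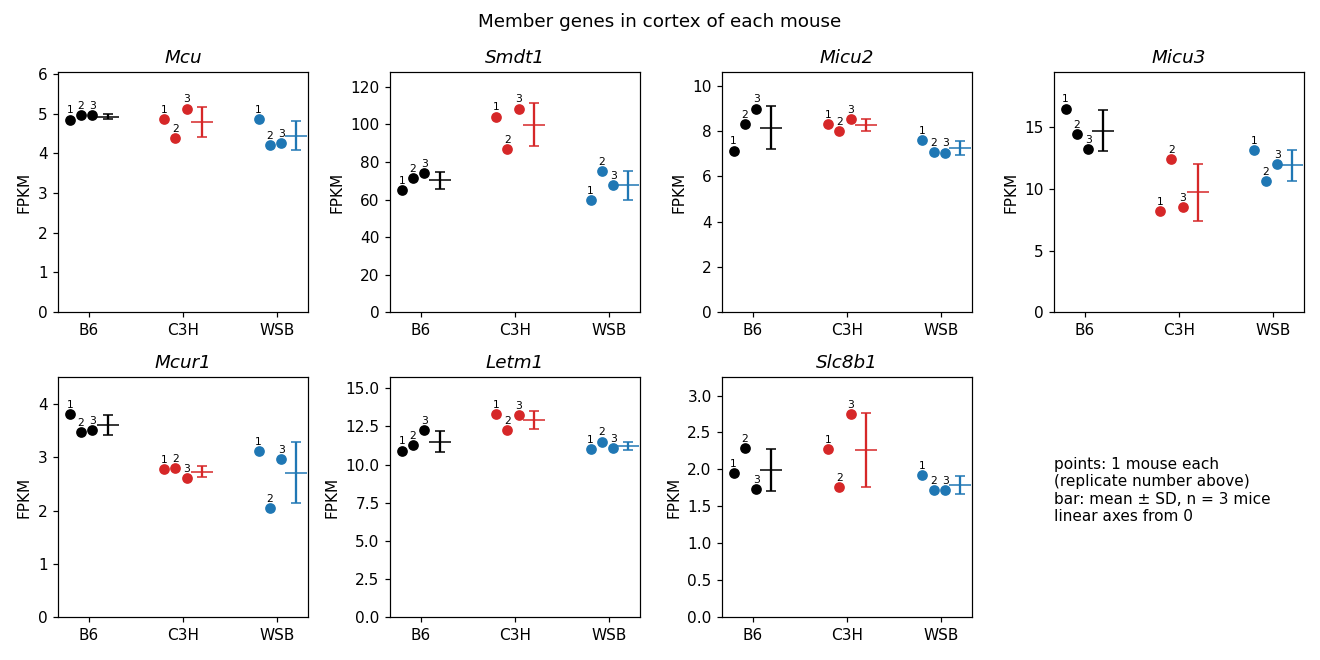
FPKM of the 7 genes in each mouse (points, with the replicate number) by strain, with the mean and SD of 3 mice beside them, on linear axes from 0. The 3 C3H mice lie above all others for Smdt1, between 87.0 and 108.5 FPKM, and the 3 B6 mice lie above all others for Mcur1 and Micu3.

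The first comparison asked whether the pore gene and its regulator differed between strains. Mcu had 4.86, 4.97 and 4.97 FPKM in the 3 B6 mice, 4.87, 4.38 and 5.13 in C3H, and 4.86, 4.22 and 4.25 in WSB. The ranges of the 3 strains overlapped, and no comparison of Mcu passed the test. The log2 fold change against B6 was -0.15 in WSB, with a 95% interval from -0.37 to 0.07, and -0.04 in C3H, with an interval from -0.27 to 0.18.

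Smdt1, the gene for EMRE, was higher in C3H than in either other strain. It had 65.1, 71.7 and 74.0 FPKM in B6, 104.2, 87.0 and 108.5 in C3H, and 59.8, 75.3 and 67.7 in WSB. All 3 C3H mice were above all B6 and WSB mice, while B6 and WSB overlapped. The C3H mean of 99.9 ± 11.4 (SD, n = 3) was 1.42-fold that of B6, 70.3 ± 4.63 (SD, n = 3), with a log2 fold change of 0.50 (SE 0.10, adjusted p = 0.0384 by limma). Smdt1 was the only 1 of the 7 genes called in C3H against B6, beside 4.64% of the 20602 genes tested, or 2.38% for higher levels in C3H. In WSB it was 67.6 ± 7.74 FPKM (SD, n = 3), and the WSB effect was lower than the C3H effect by a log2 difference of -0.56 (SE 0.11, adjusted p = 0.0141 by limma).

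The call for Smdt1 in C3H against B6 was lost when any mouse other than C3H replicate 2 was left out, with log2 fold changes of 0.44 to 0.54 and adjusted p by limma of 0.0831 (without B6 replicate 3) to 0.146 (without C3H replicate 1). Without C3H replicate 2 it was 0.60 (adjusted p = 0.0126 by limma). It was also lost with no filter on low values (adjusted p = 0.0635) and with a single spread for all levels (adjusted p = 0.118), both by limma. Against WSB the call was lost without C3H replicate 1 (-0.53), C3H replicate 3 (-0.50) or WSB replicate 1 (-0.48), and held in the 6 other fits that left out a mouse. Those 6 include the fits without a B6 mouse, which left the WSB and C3H means, and so the estimate, unchanged.

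Several measures moved with Smdt1. The summed level of 14 abundant nuclear-encoded mitochondrial genes, such as Cox4i1 and Atp5a1, was 1286 to 1403 FPKM in the B6 mice, 1467 to 1631 in the C3H mice and 1327 to 1403 in the WSB mice. Per 1000 FPKM of this sum, Smdt1 was still higher in all 3 C3H mice (65.6, 59.3 and 66.5) than in B6 (50.6, 53.3 and 52.8) or WSB (45.1, 53.7 and 50.7). The blood markers were higher in the same 3 C3H mice, with 3 of 5 called in C3H against B6, and their part in the Smdt1 difference was not tested. In bulk tissue, more cells of a type and more RNA per cell cannot be told apart.

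The test across all genes gave the background for the whole set of 7. In WSB against B6, 0 of the 7 were called by limma, where 5.9% of 20746 genes were. Micu3 and Mcur1 had an unadjusted p under 0.05, as had 20.4% of all genes, and voom weights also called 0. All 7 estimates were below 0, from -0.42 to -0.03, with a median of -0.15. Over all genes tested 49.7% were below 0 and the median was 0.00. The WSB and B6 mice did not overlap for 2 of the 7, Micu3 and Mcur1, as for 26.0% of all genes. In C3H against B6, 3 estimates were below 0 and 4 above, with a median of 0.03. Smdt1, Micu3 and Mcur1 had an unadjusted p under 0.05, as had 24.1% of all genes, and 4 genes did not overlap (Smdt1, Micu3, Mcur1 and Letm1), where 28.9% of all genes did not. Both comparisons share the B6 mice. In WSB against C3H, Smdt1 was again the 1 gene called, beside 7.98% of 20768 genes, or 4.38% for lower levels in WSB. Smdt1 and Letm1 had an unadjusted p under 0.05, as had 25.7% of all genes, and 3 genes did not overlap (Smdt1, Micu2 and Letm1), beside 28.4% of all genes.

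C3H replicate 2, whose GC trend differed from that of the other C3H mice, was left out in turn. This kept only C3H replicates 1 and 3, whose GC trends lay above those of all other mice. Without C3H replicate 2 the log2 fold changes in C3H against B6 were 0.02 for Mcu, 0.05 for Micu2, -0.405 for Mcur1, 0.21 for Letm1 and 0.33 for Slc8b1, and none of these 5 passed. Mcu thus changed sign, and Slc8b1 moved from 0.16. In WSB against C3H they were -0.66 for Smdt1 (adjusted p = 0.00722 by limma), -0.17 for Mcu, -0.22 for Micu2, -0.01 for Mcur1, -0.24 for Letm1 and -0.47 for Slc8b1. Of these 6, Smdt1 passed.

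**Figure D2:**
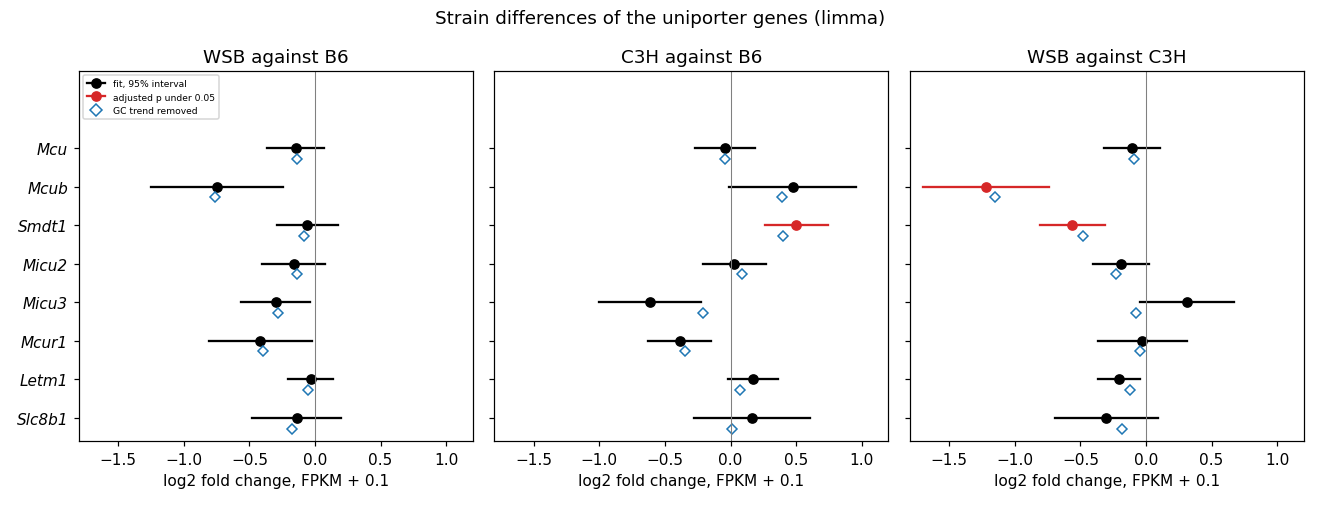
Log2 fold changes of the 7 genes and of Mcub in each comparison, with 95% intervals (circles and bars, red where the adjusted p was under 0.05) and the value after each library's GC trend was removed (diamonds). Smdt1 is red in the C3H and B6 panel at 0.50 and in the WSB and C3H panel at -0.56, and the diamond of Micu3 lies much nearer 0 than its circle in C3H against B6.

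Among the gatekeepers, Micu2 differed little between strains. Micu2 (ENSMUSG00000021973, chromosome 14 from 57916261 to 57999262, minus strand) had 7.14, 8.32 and 8.99 FPKM in B6, 8.29, 8.02 and 8.54 in C3H, and 7.60, 7.06 and 7.05 in WSB. The B6 mice spanned the values of both other strains except for the 2 lowest WSB mice, and all WSB mice were below all C3H mice. None of its comparisons passed the test, with log2 fold changes of -0.16 in WSB and 0.03 in C3H against B6, and -0.19 between WSB and C3H (adjusted p = 0.234 by limma). Its level relative to Mcu was 1.65 ± 0.171 in B6, 1.73 ± 0.0867 in C3H and 1.63 ± 0.0588 in WSB (SD, n = 3).

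Micu3 was highest in B6 and lowest in 2 of the 3 C3H mice. It had 16.5, 14.4 and 13.2 FPKM in B6, 8.23, 12.4 and 8.53 in C3H, and 13.2, 10.6 and 12.0 in WSB. All C3H and all WSB mice were below all B6 mice, though WSB replicate 1 and B6 replicate 3 nearly met, and C3H replicate 2 lay within the WSB range. The C3H mean was 0.66 of the B6 mean, with a log2 fold change of -0.61 (95% interval -1.0 to -0.22, adjusted p = 0.0877 by limma), and the WSB mean was 0.81 of it, with -0.30 (95% interval -0.57 to -0.04, adjusted p = 0.191 by limma). Neither passed the threshold here, though the study's own DESeq2 test lists Micu3 as lower in C3H than in B6. The difference between the effects, 0.31 (adjusted p = 0.25 by limma), did not pass either.

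Whether Micu3 was called depended on 1 mouse, on the use of voom weights and, in WSB against B6, on removal of the GC trend. Voom weights left its estimate almost unchanged. Without C3H replicate 2, Micu3 was called in C3H against B6 (-0.80, adjusted p = 0.0128 by limma) and in WSB against C3H (0.50, adjusted p = 0.0307 by limma), while with voom weights on all mice it was called in C3H against B6 only (-0.62, adjusted p = 0.03 by limma-voom). Over the remaining alternatives the adjusted p by limma in C3H against B6 ran from 0.0516, with all strains in one fit, to 0.264, without C3H replicate 1.

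Base composition moved with Micu3. Its longest transcript is 35.7% G and C, and 0.685% of 12995 expressed genes are lower, while the median gene is at 50.0%. In each library, the deviation of genes from their mean over all 9 mice was correlated with GC content across these genes, which are not independent replicates. Spearman's rho was 0.513 and 0.527 in C3H replicates 1 and 3 but -0.18 in C3H replicate 2. It was -0.467, -0.187 and -0.0597 in the B6 mice and -0.369, 0.0592 and -0.105 in the WSB mice. Micu3 was lowest in the 2 libraries with the highest rho and highest in B6 replicate 1, where rho was lowest. At nearly the same rho, Micu3 was 12.4 FPKM in C3H replicate 2 and 14.4 in B6 replicate 2.

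With each library's GC trend removed, Micu3 was -0.21 in C3H against B6 (adjusted p = 0.12 by limma) and -0.28 in WSB against B6, which then passed (adjusted p = 0.0463 by limma). The WSB minus C3H difference turned to -0.07 (adjusted p = 0.499 by limma). Smdt1, at 53.1% G and C, stayed called after the same removal, at 0.40 in C3H against B6 (adjusted p = 0.0145 by limma) and -0.48 in WSB against C3H (adjusted p = 0.0054 by limma). With GC and length trends both removed, Smdt1 was 0.32 in C3H against B6 (adjusted p = 0.0198 by limma) and -0.42 in WSB against C3H (adjusted p = 0.00452 by limma), both still called. Across all genes the fold change had a rho with GC content of 0.48 in C3H against B6, 0.11 in WSB against B6 and -0.40 in WSB against C3H.

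**Figure D3:**
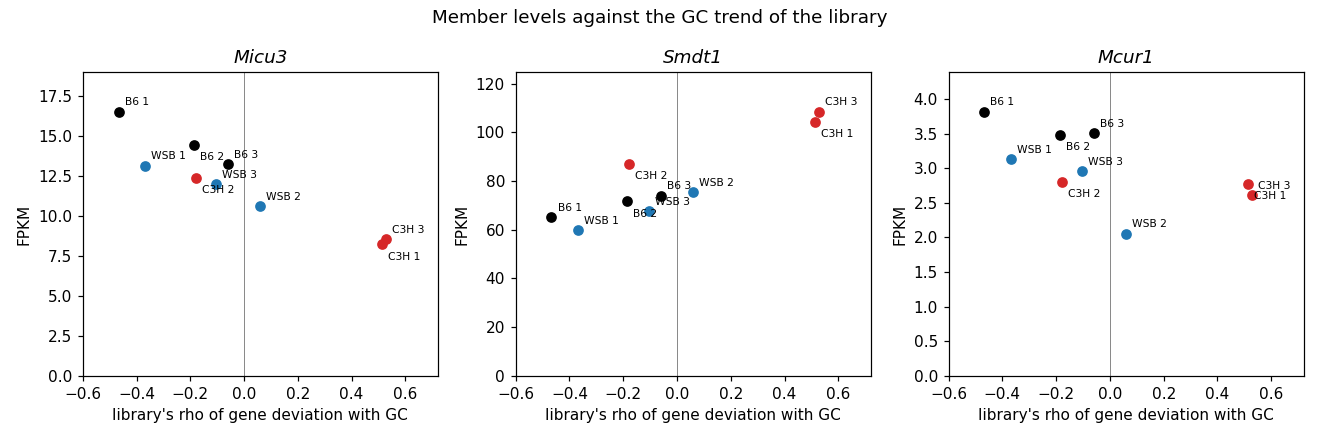
FPKM of Micu3, Smdt1 and Mcur1 (vertical, from 0) in each mouse against the library's Spearman correlation between gene deviation and GC content (horizontal). Micu3 falls from 16.5 FPKM at a rho of -0.467 to 8.23 FPKM at 0.513, Smdt1 is higher in C3H replicate 2 (87.0 FPKM, rho -0.18) than in all B6 and WSB mice, and Mcur1 is lower in all C3H than in all B6 mice.

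The 3 genes most like Micu3 across the 9 mice, by Pearson correlation of log2 values over 13009 genes, were Stxbp5l (0.997), Itch (0.989) and Togaram1 (0.987), which are at 42.1% to 43.8% G and C. The 9 mice share strains, and whether these genes follow the libraries' GC trend was not tested.

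The genes around Micu3 were set beside it because the study mapped a locus there. Within 500 kb of Micu3 the annotation holds 20 genes with Micu3, of which 6 averaged 1 FPKM or more and 13 were at 0 in all mice. In C3H against B6 the low-GC neighbours Cnot7 (38.2% G and C, -0.38) and Vps37a (39.8%, -0.42) had estimates below 0 that did not pass, and Zdhhc2 (42.2%) had -0.05. The study's own test lists Cnot7 and Vps37a as lower in C3H. Mtmr7, a phosphatase gene at 47.5%, was called in C3H (-0.37, adjusted p = 0.0371 by limma) and WSB (-0.33, adjusted p = 0.0433 by limma) against B6. The call in WSB held in 0 of the 6 fits that left out a mouse and that in C3H in 1, without C3H replicate 2 (-0.36), and both were lost without a trend in eBayes. The arginine transporter gene Slc7a2 had -0.25 in C3H and -0.74 in WSB against B6, and did not pass by limma. Voom weights called it in WSB against B6. The remaining gene tested, Gm5345, was called in both comparisons with B6 and has under 1 FPKM on average.

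**Figure D4:**
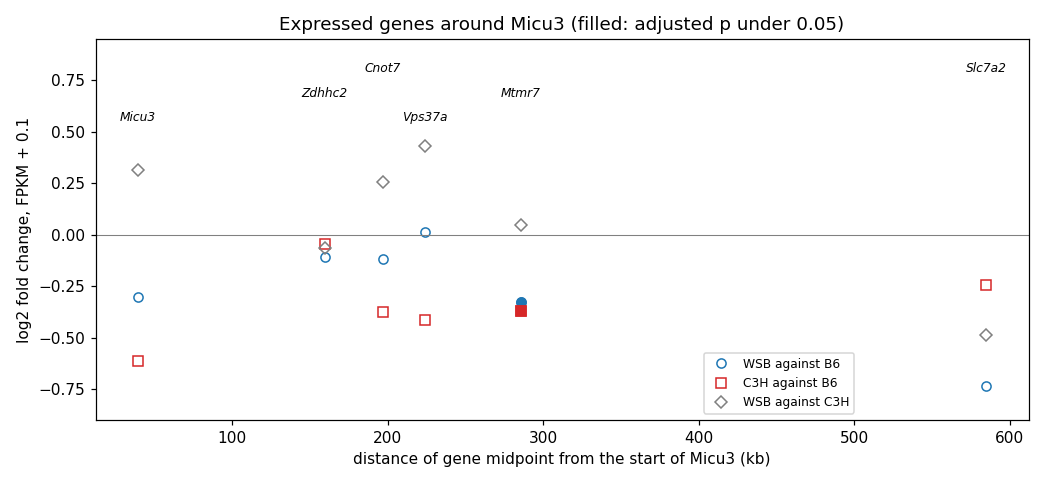
Log2 fold change (vertical) of the 6 genes averaging 1 FPKM or more within 500 kb of Micu3, against the distance of their midpoints from the start of Micu3 in kb (horizontal), with filled symbols where the adjusted p was under 0.05. Micu3 has the lowest value of the 6 in C3H against B6 (-0.61) and Slc7a2 the lowest in WSB against B6 (-0.74), and the filled symbols are those of Mtmr7.

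Mcur1, the assembly scaffold, was lower in both strains than in B6 by estimates that did not pass. Mcur1 (ENSMUSG00000021371, chromosome 13 from 43538393 to 43560191, minus strand) had 3.82, 3.48 and 3.51 FPKM in B6, 2.78, 2.80 and 2.61 in C3H, and 3.13, 2.06 and 2.96 in WSB. The B6 mice lay above all 6 others, and the tightest group was C3H. The log2 fold change was -0.39 in C3H (95% interval -0.63 to -0.15, adjusted p = 0.0839 by limma) and -0.42 in WSB (95% interval -0.81 to -0.03, adjusted p = 0.217 by limma). Without WSB replicate 2, the lowest mouse, the WSB value was -0.23 (adjusted p = 0.366 by limma). C3H and WSB had the same fitted level within error (-0.03, 95% interval -0.37 to 0.31), and this difference turned to 0.15 without the same mouse. The ratio of Mcur1 to Mcu was 0.701 to 0.787 in B6 and 0.509 to 0.639 in C3H, without overlap, and 0.487 to 0.697 in WSB.

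Of the exchanger genes, Letm1 was slightly higher in C3H by an estimate that did not pass. Letm1 (ENSMUSG00000005299, chromosome 5 from 33739673 to 33782817, minus strand) had 10.9, 11.3 and 12.3 FPKM in B6, 13.3, 12.3 and 13.3 in C3H, and 11.0, 11.5 and 11.1 in WSB. The C3H mice were the 3 highest, by a narrow margin over B6 replicate 3. The log2 fold change was 0.17 in C3H against B6 (adjusted p = 0.242 by limma), -0.03 in WSB against B6 (adjusted p = 0.853 by limma) and -0.21 between WSB and C3H (adjusted p = 0.114 by limma). Per 1000 FPKM of the 14 mitochondrial genes, Letm1 was 8.39 to 8.74 in the B6 mice, 8.13 to 8.39 in the C3H mice and 8.20 to 8.32 in the WSB mice, a range far narrower than that of its FPKM. Across the 9 mice, log2 levels of Letm1 ran with those of Smdt1 (Pearson r = 0.951) and against those of Micu3 (r = -0.812), and Smdt1 ran against Micu3 (r = -0.834). These 9 points share strain and the libraries' GC trends.

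Slc8b1, the exit route, had the lowest mean of the 7 and passed in no comparison. Slc8b1 (ENSMUSG00000032754, chromosome 5 from 120511168 to 120534024, plus strand) had 1.95, 2.29 and 1.73 FPKM in B6, 2.28, 1.76 and 2.75 in C3H, and 1.93, 1.72 and 1.72 in WSB. The strains overlapped, and the estimates were 0.16 in C3H and -0.14 in WSB against B6, with 95% intervals from -0.28 to 0.61 and from -0.48 to 0.20. With 103 to 185 reads a library, a change of the size seen for Smdt1 lay inside the C3H interval. Its transcript of 2898 bases matches transcripts of 154 other genes at 90% or more over at least 150 bases, the best over 161 bases. Reads of such stretches may be split among genes. Micu3 has 1 such match, Fgf20 at 100% over 204 bases. Fgf20 overlaps the start of Micu3 on the opposite strand and was at 0 FPKM in all mice. Mcu, Smdt1, Micu2, Mcur1 and Letm1 have no such match. Of the genes that overlap the models of the 7, Pheta2, on the strand of Smdt1, had the most reads, at most 22.

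Set against the pore in the same mouse, Smdt1 again separated C3H from the other strains. The ratio of Smdt1 to Mcu was 13.4, 14.4 and 14.9 in B6, 21.4, 19.8 and 21.1 in C3H, and 12.3, 17.8 and 15.9 in WSB. All C3H mice were above all others in this ratio. The ratio of Micu3 to Mcu was 2.66 to 3.41 in the B6 mice, 1.66 to 2.83 in the C3H mice and 2.52 to 2.82 in the WSB mice, with overlap, and its C3H mean of 2.06 was 1.68 without C3H replicate 2. That of Letm1 was 2.25 to 2.47, 2.58 to 2.80 and 2.27 to 2.73, and that of Slc8b1 was 0.349 to 0.46, 0.401 to 0.536 and 0.396 to 0.407. Each ratio is per length of the gene models and no test was run on it.

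**Figure D5:**
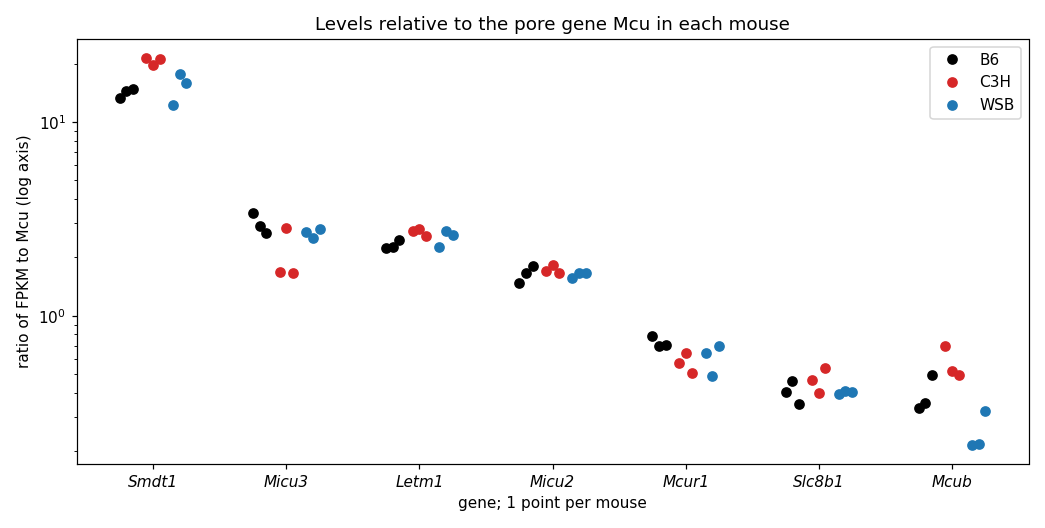
Ratio of the FPKM of each gene to that of Mcu in the same mouse (log axis), with 1 point per mouse coloured by strain. The C3H points lie above the others for Smdt1 (19.8 to 21.4), and the WSB points lie below the others for Mcub (0.216 to 0.322).

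Mcub, the paralogue that lowers conductance, was lower in WSB than in C3H. It had 1.61, 1.77 and 2.46 FPKM in B6, 3.38, 2.27 and 2.54 in C3H, and 1.05, 0.92 and 1.37 in WSB, from 21 to 83 reads a library. All WSB mice were below all others, and the WSB mean was 0.408 of the C3H mean (log2 fold change -1.22, SE 0.22, adjusted p = 0.00872 by limma), a call that held whichever mouse was left out. Against B6 the change did not pass in WSB (-0.75, adjusted p = 0.101 by limma) or in C3H (0.47, adjusted p = 0.215 by limma). Per Mcu, Mcub was 0.332 to 0.494 in the B6 mice, 0.495 to 0.694 in the C3H mice and 0.216 to 0.322 in the WSB mice. The sum of 6 microglial markers was also lower in WSB, 122 to 126 FPKM against 137 to 148 in B6 and 143 to 172 in C3H, as was that of 6 endothelial markers, 22.5 to 29.5 against 36.7 to 40.3 and 33.0 to 46.8. The endothelial difference lay mainly in Ly6c1, listed at 0 in all WSB mice and at 10.5 to 18.1 FPKM in the others, and without it the WSB sums (22.5 to 29.5) overlapped those of the B6 mice (25.8 to 29.3), and the C3H sums reached up to 28.7. The part of these markers in the Mcub difference was not tested.

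Beside the 7, 9 lists gave 82 genes, all of them tested. They covered the wider calcium pathway, 14 abundant nuclear-encoded mitochondrial genes and 9 protein genes of the mitochondrial genome. Of the 82, 4 were called in WSB against B6 (4.88%), 3 in C3H against B6 (3.66%) and 7 in WSB against C3H (8.54%), close to the 5.9%, 4.64% and 7.98% of all genes tested. Outside the calcium pathway lay the calls of mt-Co2 in WSB against B6, and of mt-Nd5 and mt-Co3 in C3H against B6. In WSB against C3H they were those of Cox4i1, mt-Nd5 and mt-Co2. The shares are thus not those of the calcium pathway alone. Lists of assembly and processing factors (7 genes, with Slc25a23, Afg3l2 and Spg7 the highest), mitochondrial cation exchangers (7, with Ghitm, Tmem65 and Letm1) and the permeability transition (9, with Slc25a4, Slc25a5 and Hk1) had 0 genes called by limma in the 3 comparisons beside the values of Mcur1, Letm1 and Slc8b1 given above, and voom weights called 0 too. At an unadjusted p under 0.05 they had 2, 4 and 3 genes, 0, 0 and 5 genes, and 0, 3 and 2 genes in WSB against B6, C3H against B6 and WSB against C3H, where 20.4%, 24.1% and 25.7% of all genes did.

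On the route of calcium from the endoplasmic reticulum (14 genes, with Vdac1, Hspa9 and Mfn2 the highest), the 1 gene called by limma was Mfn1, a fusion protein of the outer membrane. Voom weights called 1, 3 and 3 of the 14 in WSB against B6, C3H against B6 and WSB against C3H. Mfn1 had 13.1 to 13.5 FPKM in the B6 mice, 10.2 to 11.4 in the C3H mice and 13.6 to 14.3 in the WSB mice, and was higher in WSB than in C3H by 0.40 (adjusted p = 0.00771 by limma), a call that held in all 9 fits that left out a mouse (0.45 without C3H replicate 2). Among 12 calcium-regulated enzymes and carriers (Idh3b, Idh3g and Ogdh the highest), Slc25a24, a calcium-dependent carrier of ATP and phosphate, was higher in WSB than in B6 by 1.05 (adjusted p = 0.0224 by limma) and than in C3H by 0.94 (adjusted p = 0.0302 by limma), with as few as 35 reads in a library. Its call against B6 held in 0 of the 6 fits that left out a mouse (adjusted p by limma of 0.0508 to 0.0772). That against C3H held in 4 of 9, those without a B6 mouse or without C3H replicate 2. Both calls were lost with no filter on low values. The other 11 did not pass in any comparison.

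Among 11 genes that move calcium out of the cell or into the endoplasmic reticulum (Atp2a2, Slc8a2 and Atp2b2 the highest), those called were Slc24a2 and Slc8a2, which are 2 of the 5 sodium and calcium exchangers listed. Slc8a1, Slc8a3 and Slc24a3 passed in no comparison, and Slc24a3 had estimates above 0 against B6 (0.23 in WSB and 0.22 in C3H). Slc24a2 had 29.6 to 33.8 FPKM in the B6 mice, 14.6 to 22.0 in the C3H mice and 18.0 to 23.2 in the WSB mice. Against B6 its log2 fold change was -0.88 in C3H (adjusted p = 0.0215 by limma) and -0.57 in WSB (adjusted p = 0.0289 by limma). Leaving out a mouse, the C3H call held only without C3H replicate 2 (-1.06, adjusted p = 0.00187 by limma), and the WSB call only without WSB replicate 1 or 2. Slc8a2 was lower in WSB, at 50.4 to 53.6 FPKM, than in B6, at 63.1 to 65.8 (-0.30, adjusted p = 0.0304 by limma), and than in C3H (-0.33, adjusted p = 0.0481 by limma). The call against B6 held in 0 of the 6 fits that left out a mouse and that against C3H in 1 of 9, without C3H replicate 2, and the latter was lost with the GC trend removed (-0.20, adjusted p = 0.0897 by limma). The median log2 fold change of the 11 was -0.23 in WSB and -0.15 in C3H against B6, where the medians over all genes were within 0.01 of 0.

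Of the 14 abundant nuclear-encoded mitochondrial genes (Cox4i1 and Atp5a1 the highest), Cox4i1 was the 1 called by limma, lower in WSB than in C3H (-0.43, adjusted p = 0.0276 by limma). The call held in 5 of the 9 fits that left out a mouse, those without a B6 mouse, C3H replicate 2 or WSB replicate 2. Voom weights called 0, 1 and 2 of the 14 in WSB against B6, C3H against B6 and WSB against C3H. The 9 protein genes of the mitochondrial genome summed to 18668 to 22151 FPKM in the B6 mice, 14937 to 16480 in the C3H mice and 17288 to 20285 in the WSB mice. The C3H sums were the lowest, while C3H was the highest in the nuclear-encoded sum and in Smdt1. The highest of the 9 were mt-Co1, mt-Nd1 and mt-Cytb. Voom weights called 1, 6 and 4 of the 9 in WSB against B6, C3H against B6 and WSB against C3H, and the calls that follow are by limma. Of these 9, mt-Nd5 was lower in C3H than in B6 (-0.73, adjusted p = 0.0281 by limma) and than in WSB, whose difference from C3H was 0.52 (adjusted p = 0.0397 by limma). With the GC trend removed neither passed (-0.36, adjusted p = 0.0857, and 0.17, adjusted p = 0.327, by limma), and leaving out a mouse they held in 2 of 6 and 3 of 9 fits. The 3 fits were those without B6 replicate 1, B6 replicate 3 or C3H replicate 2. Also called were mt-Co2, higher in WSB than in B6 (1.17) and C3H (1.60), and mt-Co3, higher in C3H than in B6 (0.69). Leaving out a mouse, the mt-Co2 call held in 2 of 6 fits against B6 and 9 of 9 against C3H, and the mt-Co3 call in 2 of 6. Both genes had 26.3 to 119.4 FPKM, far below mt-Co1. Mitochondrial genes have near-identical copies in the nuclear genome, and their part in these calls was not tested, so the calls are uncertain.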

How the data were processed

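RNA of cortex from 3 male mice of each of 3 strains was sequenced as paired-end reads. The authors trimmed adapters with Cutadapt, and the submitters' processing notes name STAR, HTSeq and DESeq2. Versions, the annotation and the use of strand in counting are not given in the sources used here. The authors deposited FPKM values per gene and mouse. Multiplied by gene length, 100% of values in each library came out as whole multiples of a single step (tolerance 0.01 reads), from which reads per gene were taken. Intervals and reads cover counting error only where they concern single libraries. The labels do not say whether the mice share litters or preparation, so p-values measure the spread between these samples.

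Strains were taken from the sample labels. Strains were compared two-sided with limma 3.58.1 under R 4.3.3 (lmFit, then eBayes with its trend option) on log2(FPKM + 0.1), a scale that understates changes of low genes, for genes averaging 0.1 FPKM or more, with Benjamini-Hochberg adjustment over all genes tested and a threshold of 0.05. WSB and C3H were each fitted with B6 alone, and WSB minus C3H on all 9 mice. Leaving out a B6 mouse thus kept the WSB minus C3H estimate and altered only its error. Such fits are among the 9 counted for that comparison. Of 54532 identifiers, 54495 were found in GENCODE M21, 53585 of them at the same place on GRCm38. GC content was known for 54409. GC trends were removed per library by lowess (span 0.3). Similar transcripts were searched with blastn 2.17.0, and figures drawn with matplotlib 3.10.9. The fit was tested on simulated data that held no GC trends, no outlying mouse and only planted changes larger than that of Smdt1. That test therefore cannot vouch for the calls reported here.

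The 7 genes, the wider lists and the tests were chosen with earlier results of these data known. Genes named were the 7, genes of the lists that passed or were among the 3 highest of their list, expressed genes within 500 kb of Micu3, and the 3 genes most like Micu3 and Mcu. Gm5345, which had under 1 FPKM, Atp5a1 beside the Smdt1 result, the markers Ly6c1 and Wfs1, the exchangers that did not pass, and the genes overlapping the models were named after their values were seen. Same-numbered mice did not deviate together (Pearson r of -0.157 to 0.037 over genes), so the numbers do not pair them. Alternatives were pseudocounts of 1 and 0.01, no filter and a filter of 1 FPKM, median-of-ratios rescaling, one fit of all strains or of 2, eBayes without a trend, voom weights, GC trend removal, the replicate number as a block, and leaving out each mouse. Removal of GC and length trends, transcript length and the ratio to 14 mitochondrial genes were added after seeing the data. Results for some genes are not reported here. The table of the authors' own comparisons was not used, and what the study lists for a gene is taken from its published text.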

Additional observations from a re-analysis of the deposited data

Results flagged for a closer look

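Smdt1 and Mcub were noted because the effect of WSB against B6 and that of C3H against B6 differed by the test of the difference itself. For Smdt1 this difference was -0.56 on the log2 scale (SE 0.11, adjusted p = 0.0141 by limma), with all 3 WSB mice below all 3 C3H mice, and it was -0.48 to -0.66 over the fits that left out a mouse. For Mcub it was -1.22 (SE 0.22, adjusted p = 0.00872 by limma), again with all WSB below all C3H mice, and -1.06 to -1.37 over those fits. Both comparisons share the B6 mice.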

How the results depend on the processing

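With 3 mice a strain, p-values near the threshold changed side easily. Of 264 settings other than leaving out a mouse, over the log2 fold changes of the 7 genes and Mcub, 255 kept direction and side of the threshold, 3 lost a call, 3 gained one and 3 turned direction. These include median-of-ratios rescaling, which could hardly differ from the main fit because the deposited FPKM already carried that scaling. Of 168 that left out a mouse, 153 kept both, 8 lost a call, 2 gained one and 5 turned. Most of these results were not called to begin with and had no call to lose. The calls were those of Smdt1 in C3H against B6 and in WSB against C3H, and of Mcub in WSB against C3H. All losses were of Smdt1. Leaving out a mouse, its call was lost in 5 of 6 fits in C3H against B6 and in 3 of 9 in WSB against C3H. Those 9 include the fits without a B6 mouse, which keep the WSB minus C3H estimate unchanged. The cause was not tested in any case. Estimates that turned, none of them called, were Micu3 in WSB against C3H with GC (-0.0749) or GC and length trends (-0.089) removed, and Slc8b1 in C3H against B6 with GC and length removed (-0.0264). Leaving out a mouse, in WSB against B6 Smdt1 ran from -0.14 to 0.0253 (without WSB replicate 1) and Letm1 from -0.0697 to 0.0133 (without B6 replicate 3). In C3H against B6 Mcu ran from -0.092 to 0.0197 (without C3H replicate 2) and Micu2 from -0.0622 (without B6 replicate 1) to 0.103, and in WSB against C3H Mcur1 ran from -0.139 to 0.152 (without WSB replicate 2).

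The number of the 7 genes called in WSB against B6 was 0, and 1 (Micu3) with GC or GC and length trends removed. In C3H against B6 it was 1, and 0 with no filter, 0 without a trend in eBayes, 2 with voom weights, and 0 to 2 leaving out a mouse, with 2 (Smdt1 and Micu3) without C3H replicate 2 and 0 without any other. In WSB against C3H it was 1, and 0 to 2 leaving out a mouse, with 0 without C3H replicate 1, C3H replicate 3 or WSB replicate 1 and 2 without C3H replicate 2. Of the 82 wider genes, 4 were called in WSB against B6, with 5 under voom weights, 5 with the GC trend removed, 1 without a trend and 0 to 1 leaving out a mouse. In C3H against B6 it was 3, with 5 in one fit of all strains, 0 without a trend, 12 with voom weights and 0 to 13 leaving out a mouse (13 without C3H replicate 2). In WSB against C3H it was 7, with 3 unfiltered, 4 with only the 2 strains, 12 with voom weights and 3 to 15 leaving out a mouse (15 without C3H replicate 2).

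Within 500 kb of Micu3, 2 genes were called in WSB against B6, with 1 at a pseudocount of 0.01, 1 at a filter of 1 FPKM, 1 without a trend, and 0 to 1 leaving out a mouse. The number was 3 with voom weights, which added Slc7a2, and 3 with the GC trend removed, which added Micu3. In C3H against B6 it was 2, with 1 at a filter of 1 FPKM, 1 without a trend and 1 to 5 leaving out a mouse (5 without C3H replicate 2). In WSB against C3H it was 0, with 1 under voom weights, 1 (Zdhhc2) with GC removed, 2 with GC and length removed, and 0 to 2 leaving out a mouse. The call of Mtmr7 against B6 was lost leaving out any mouse except, for C3H, C3H replicate 2. The mean ratio of Micu3 to Mcu in WSB, 2.68, was 2.45 with GC removed. Per length of 1 transcript, mean levels were 166 for Smdt1, 33.6 for Micu3, 21.7 for Letm1, 11.4 for Mcu, 10.4 for Micu2, 4.92 for Mcur1 and 2.41 for Slc8b1. Over all genes, calls in C3H against B6 went from 956 to 1488 with voom weights and 498 to 2301 leaving out a mouse (2301 without C3H replicate 2), from 1657 to 874 to 2709 in WSB against C3H, and from 1224 to 651 to 825 in WSB against B6.

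With the replicate number as a block, which does not pair these mice, the 7 genes gave 0 calls in C3H against B6 (Smdt1 at adjusted p = 0.104 by limma), the wider genes 2 in WSB against B6, 1 in C3H against B6 and 4 in WSB against C3H, and the genes around Micu3 1 in each comparison with B6. Over all genes the block gave 754 calls in WSB against B6 and 480 in C3H against B6.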

Other observations

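Levels of Mcu across the 9 mice ran most closely with those of Saal1 (Pearson r = 0.93), the magnesium transporter gene Slc41a1 (0.904) and the transcription factor gene Hhex (0.872), over 13009 genes that averaged 1 FPKM or more. These correlations are across 9 mice that share strain and library trends, and Mcu spanned 4.22 to 5.13 FPKM. Between Mcu and the other genes, r was highest for Slc8b1 (0.716) and Micu2 (0.686) and near 0 for Micu3 (-0.0239).

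Per 1000 FPKM of the 14 mitochondrial genes, Mcu was 3.55 to 3.78 in the B6 mice, 2.99 to 3.15 in the C3H mice and 3.01 to 3.66 in the WSB mice, so that C3H was below all B6 mice on this scale and not in FPKM.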
